A study of Mus musculus with 4 samples.

Results

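The comparison sets the circulating tumor-reactive lymphocytes of the B16 model against those of the CT-26 model, the 2 libraries labelled CTRL among the 4 of the series. They were chosen by their labels, and raw counts of 53801 genes were joined by gene identifier. The tumours are B16, a melanoma line of mice, and CT-26, a colon carcinoma line of mice. By their labels, both CTRL libraries hold CD8+ lymphocytes that bound MHC multimers, purified from peripheral blood mononuclear cells as primary cells of wild-type genotype. A multimer is a cluster of labelled peptide and MHC complexes that binds T cells through their receptor; the labels name neither the peptide nor the MHC molecule. The other 2 libraries, labelled residual, come from the same 2 models and are used here only beside the CTRL values. As background, B16 arose in C57BL/6 mice and CT-26 in BALB/c mice, and the mm10 reference genome is that of C57BL/6J. The labels name no host strain, age or number of animals, and say nothing of pooling. Model and host strain therefore cannot be told apart, and 1 library a side gives no replicate check and no test.

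CD8 T cells carry the alpha beta T-cell receptor with the CD3 complex, which passes the signal inward, and the CD8 coreceptor, which binds MHC class I. Circulating CD8 T cells are naive, memory or effector cells, told apart by transcription factors such as Tcf7 and Eomes, homing receptors such as Ccr7, and the granzymes and perforin of the cytotoxic granule. B cells and monocytes, the other abundant nucleated cells of this blood fraction, present peptides on MHC class II, which resting mouse T cells largely lack. These classes give the order of the results.

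Depth was 37166063 reads in genes for B16 CTRL and 74879891 for CT-26 CTRL. Levels are read counts rescaled to a common size with median-of-ratios size factors, 0.736 for B16 CTRL and 1.36 for CT-26 CTRL. Each log2 ratio is B16 CTRL over CT-26 CTRL with a pseudocount of 1, and its exact 95% interval covers counting error only. A gene is called higher or lower in B16 where the size of its log2 ratio reached 1 and its level reached 10 CPM in the higher library. CPM is a count scaled to the reads in genes of its own library, and 10 CPM equals 372 reads in B16 CTRL and 749 in CT-26 CTRL. Haemoglobin genes took 1.28% of reads in B16 CTRL and 0.629% in CT-26 CTRL, against 42.0% and 10.8% in the B16 and CT-26 residual libraries. Xist, the RNA of the inactive X chromosome in females, had 4506 reads in B16 CTRL and 5769 in CT-26 CTRL, and no Y-linked gene of 4 had more than 2 reads in either.

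Of 9442 genes at the level limit, 1068 were higher in B16 CTRL (11.3%) and 1281 were lower (13.6%), and the median log2 ratio of all 9442 was -0.17. A gene can reach the level limit through its higher library alone, so counts over genes at level only describe these lists. Genes of B cells, MHC class II and monocytes lay on the high side, and genes of T-cell identity on the low side. At a log2 ratio of at least 2, 618 genes were higher and 235 lower. In bulk RNA, fewer cells of a type and less RNA per cell cannot be told apart.

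**Figure D1:**
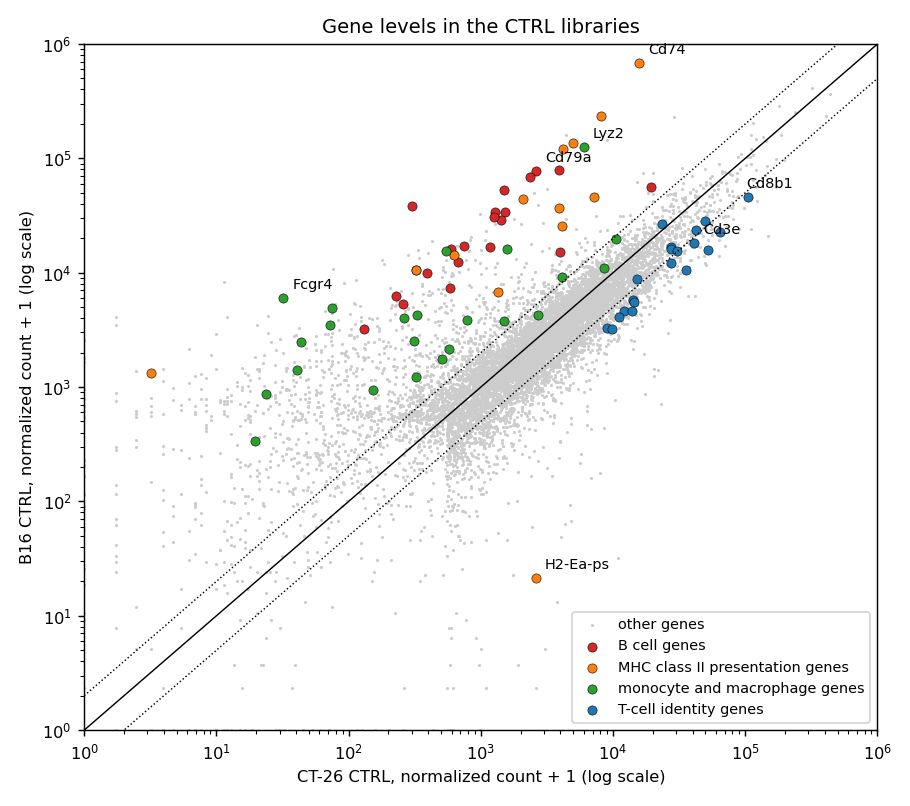
Normalized count plus 1 of each gene in B16 CTRL (vertical, log scale) against CT-26 CTRL (horizontal, log scale), with the line of equal level and dotted lines at a 2-fold difference. B cell, MHC class II and monocyte genes lie above the line, with H2-Ea-ps far below it, and the T-cell identity genes lie at or below it.

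The CD8 label was checked first. Cd8a (chromosome 6, 71373427 to 71379173, mm10), the coreceptor alpha chain, had 21390.0 normalized counts in B16 CTRL and 40495 in CT-26 CTRL, a log2 ratio of -0.92 (95% interval -0.95 to -0.90). Cd8b1, the beta chain, had 45811 normalized counts in B16 CTRL and 86999 in CT-26 CTRL, a log2 ratio of -0.93. Both chains were thus abundant in both libraries and missed the size limit by little. Per 100 reads of the CD3 complex (Cd3e, Cd3d, Cd3g and Cd247 summed), Cd8a gave 31.7 reads in B16 CTRL and 32.1 in CT-26 CTRL, and Cd8b1 gave 67.8 in B16 CTRL and 68.9 in CT-26 CTRL. The coreceptor thus stood in nearly the same ratio to the CD3 complex in both CTRL libraries. In the residual libraries Cd8a gave 0.748 reads per 100 CD3 reads for B16 and 1.30 for CT-26, far below both CTRL libraries. The cell type label of the residual libraries is CD8+ lymphocytes too, but the labels do not say whether they hold CD8+ cells that did not bind or the remaining mononuclear cells. Cd4, the helper T-cell coreceptor, gave 1.30 reads per 100 CD3 reads in B16 CTRL and 0.174 in CT-26 CTRL.

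The CD3 complex itself was lower in B16 CTRL. Its 4 genes summed to 1338 CPM in B16 CTRL and 2289.5 CPM in CT-26 CTRL, and Cd3e alone passed the limits with a log2 ratio of -1.18 (95% interval -1.20 to -1.15). Of the 20 T-cell identity genes, which encode receptor chains and signalling proteins shared by most T cells, 13 were lower and none higher, with a median log2 ratio of -1.26 against -0.17 over all genes at level. Trac, the constant region of the receptor alpha chain, had 16875 reads in B16 CTRL and 86913 in CT-26 CTRL, a log2 ratio of -1.48. Cd6, a costimulatory receptor, had the lowest ratio of the list, -1.76. Cd2, an adhesion receptor that NK and mouse B cells also carry, was the one member with a ratio above 0, at 0.17. T-cell genes are given also per CD3 complex read, a scale on which every log2 ratio is 0.90 higher.

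All 21 genes of the B cell list were higher in B16 CTRL, with a median log2 ratio of 4.59. Their summed level was 12296 CPM in B16 CTRL and 808 CPM in CT-26 CTRL, 13.9-fold apart after rescaling. Cd79a (chromosome 7, 24897381 to 24902197), a signalling subunit of the B-cell receptor, had 77687 normalized counts in B16 CTRL and 2633 in CT-26 CTRL, a log2 ratio of 4.88 (95% interval 4.83 to 4.93). Ms4a1, the CD20 antigen, gave 50.6 reads per 100 CD3 reads in B16 CTRL and 1.01 in CT-26 CTRL. The transcription factors Pax5 and Ebf1, which specify B cells, had log2 ratios of 4.36 and 4.51. Ly6d, a surface marker of the B lineage, had the highest ratio of the list, with 28462 reads in B16 CTRL and 405 in CT-26 CTRL. Cd37, a tetraspanin that T cells also express, had the lowest, with a log2 ratio of 1.52.

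The residual libraries did not show this gap. There the median log2 ratio of the 21 B cell genes, B16 over CT-26, was 0.37, with 3 genes higher and none lower, where 6.33% of 8895 genes at level were higher and 16.2% lower. Summed B cell genes came to 1606 CPM in the B16 residual library and 1879 CPM in the CT-26 residual library. B16 CTRL therefore held more B-cell RNA per read than the B16 residual library, and CT-26 CTRL less than the CT-26 residual library. Haemoglobin reads took 42.0% of the B16 residual library, and their part in this order was not tested.

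The 6 immunoglobulin constant genes at level were all higher in B16 CTRL too, by unequal amounts. Ighm, the IgM heavy chain constant region, had 168311 reads in B16 CTRL and 39303 in CT-26 CTRL, a log2 ratio of 2.98. Ighd, the IgD constant region of mature naive B cells, had 56462 reads in B16 CTRL and 3298 in CT-26 CTRL, a log2 ratio of 4.98. Of reads in heavy chain constant genes, Ighm took 74.8% in B16 CTRL (Wilson 95% interval 74.6 to 74.9) and 89.5% in CT-26 CTRL (89.2 to 89.8), and Ighd took 25.1% in B16 CTRL and 7.51% in CT-26 CTRL. The switched isotypes counted were Ighg1, Ighg2b, Ighg2c, Ighg3, Igha and Ighe, without Ighg2a, and these were minor in both libraries. Ighg1 had 0 reads in B16 CTRL and 590 in CT-26 CTRL, and Igha had 194 in B16 CTRL and 647 in CT-26 CTRL. Igkc, the kappa light chain, took 71.7% of light chain constant reads in B16 CTRL and 73.4% in CT-26 CTRL. Its 117148 reads in B16 CTRL and 5988 in CT-26 CTRL gave a log2 ratio of 5.17, above the 2.98 of Ighm. The cause of this gap, and its part in the heavy chain shares, was not tested. The plasma cell list was mixed, with 4 higher and 1 lower of 8 genes at level. Mzb1, a chaperone of antibody-secreting and marginal zone B cells, had a log2 ratio of 4.10, while Jchain, which joins IgA and IgM multimers in plasma cells, had 0 reads in B16 CTRL and 171 in CT-26 CTRL.

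The genes of MHC class II presentation came to 27046 CPM in B16 CTRL and 1003.4 CPM in CT-26 CTRL, 24.7-fold apart after rescaling, with 12 of 13 genes higher, 1 lower and a median log2 ratio of 4.52. The class II promoters carry a conserved pair of elements, the X box and the Y box, which bind the complex that recruits the coactivator encoded by Ciita. The 250 bases before the start of 3 of these genes are shown, since H2-Eb1 and H2-Eb2 hold both cores and H2-Aa the Y box core alone. They come from RefSeq on GRCm38.p6, read 5' to 3' on the gene's strand, with capitals marking matches to the Y box core TGATTGG and to the X box core. Both were searched on both strands, and their matches in the windows shown do not overlap.
H2-Eb1, beta chain of I-E, chr17:34305617-34305866, plus strand: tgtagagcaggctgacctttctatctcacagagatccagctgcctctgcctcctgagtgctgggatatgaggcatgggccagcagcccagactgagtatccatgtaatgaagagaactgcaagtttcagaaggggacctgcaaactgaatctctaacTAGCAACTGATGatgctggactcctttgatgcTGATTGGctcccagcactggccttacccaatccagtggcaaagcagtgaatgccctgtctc
H2-Eb2, an I-E beta-like gene, chr17:34325425-34325674, plus strand: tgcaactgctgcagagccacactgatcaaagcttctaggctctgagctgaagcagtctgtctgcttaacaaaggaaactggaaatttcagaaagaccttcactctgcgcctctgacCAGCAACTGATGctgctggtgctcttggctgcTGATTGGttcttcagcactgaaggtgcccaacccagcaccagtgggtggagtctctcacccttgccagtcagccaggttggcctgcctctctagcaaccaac
H2-Aa, alpha chain of I-A, chr17:34287824-34288073, minus strand: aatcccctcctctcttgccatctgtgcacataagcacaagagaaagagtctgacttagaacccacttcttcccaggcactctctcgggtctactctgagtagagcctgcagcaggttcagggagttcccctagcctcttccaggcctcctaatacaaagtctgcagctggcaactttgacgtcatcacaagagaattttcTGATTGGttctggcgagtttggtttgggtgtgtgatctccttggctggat
Over the class II list, 9 genes had a promoter entry that was used, and 7 of the 9 held the Y box core and 3 of the 9 the X box core. Among all 32851 promoters searched, 7.23% held the Y box core and 0.478% the X box core. The genes with both cores were H2-Eb1, H2-Eb2 and H2-DMb1. A match describes letters only and says nothing of binding. The X box core was a fixed pattern of 12 letters, so a window without a match is not shown to lack an X box.

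Cd74, the invariant chain that guides class II molecules, had 686748 normalized counts in B16 CTRL and 15772 in CT-26 CTRL, a log2 ratio of 5.44 (95% interval 5.42 to 5.46). Scaled to exon length and library (TPM), its level was 22588 TPM in B16 CTRL and 561 TPM in CT-26 CTRL. H2-Ab1 and H2-Aa, the beta and alpha chains of I-A, had log2 ratios of 4.86 and 4.76, and H2-Eb1 had 4.85. Ciita, the coactivator, had 10512 reads in B16 CTRL and 845 in CT-26 CTRL, a log2 ratio of 4.52. The peptide loading chains H2-DMb1 and H2-DMb2 had 5.03 and 4.41, and the modulator chains H2-Ob and H2-Oa had 3.24 and 2.33. H2-Eb2 had 981 reads in B16 CTRL and 3 in CT-26 CTRL, a log2 ratio of 8.70 (95% interval 7.68 to 11.52).

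H2-Ea-ps (chromosome 17, 34341959 to 34344645), the I-E alpha chain, went the other way. It had 15 reads in B16 CTRL and 3530 in CT-26 CTRL, a log2 ratio of -6.93. In the residual libraries it had no read in B16 and 11058 normalized counts in CT-26. As background, C57BL/6 mice carry a deletion at this gene that silences it, and BALB/c mice express it. It was the one class II gene called lower in B16 in either pair. In the residual pair 3 class II genes were called higher, H2-DMb1 at 1.11, H2-Oa at 1.95 and H2-Ob at 1.57, and H2-Eb2, below the level limit there, had 2.95. The list's median residual log2 ratio was 0.33.

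Of 22 monocyte and macrophage genes at level, 19 were higher in B16 CTRL and none lower, and the list's median log2 ratio was 3.35. Lyz2, the lysozyme of myeloid cells, had 91849 reads in B16 CTRL and 8145 in CT-26 CTRL, a log2 ratio of 4.38. Csf1r, the receptor for the main growth factor of macrophages, had 11493 reads in B16 CTRL and 744 in CT-26 CTRL, a log2 ratio of 4.83. Fcgr4, an activating receptor for IgG of nonclassical, patrolling monocytes, had the highest ratio of the list, with 4445 reads in B16 CTRL and 42 in CT-26 CTRL, a log2 ratio of 7.56 (95% interval 7.17 to 8.08). Ace, which the same monocytes express, had a log2 ratio of 5.59, and Adgre1, the F4/80 antigen, had 5.83. Outside the list, Cd300e and Ear2, an activating receptor and a ribonuclease of monocytes, had log2 ratios of 8.42 and 8.22. Ly6c2 and Ccr2, markers of classical monocytes that CD8 T cells also express, had log2 ratios of 0.38 and 0.66 and did not reach the limit. Summed monocyte genes came to 4845 CPM in B16 CTRL and 709 CPM in CT-26 CTRL, 6.26-fold apart after rescaling. In the residual libraries the list's median log2 ratio was -0.27, and that of Fcgr4 was 0.07. There 5 genes of the list were lower and none higher, with Aif1 among the lower at -1.24. Over all 8895 genes at level there, 16.2% were lower and 6.33% higher.

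The lists of other blood cells had medians below that of the monocyte list. Of the 12 NK cell genes at level, 4 were higher and 3 lower, and the list median was 0.34. Fcer1g and Tyrobp, signalling adaptors that NK and myeloid cells share, led with 5.47 and 4.47. Ncr1, the NK receptor NKp46, had 499 reads in B16 CTRL and 263 in CT-26 CTRL, a log2 ratio of 1.80, and Klrb1c, the NK1.1 antigen, had 463 in B16 CTRL and 230 in CT-26 CTRL, a log2 ratio of 1.89. Of the 3 gamma delta T-cell genes at level, Blk, a kinase that B cells share, was higher at 4.56, and Trdc, the delta constant region, had a log2 ratio of 0.43. Platelet genes, among them Itga2b and Ppbp, had a median of 2.25 and summed to 141 CPM in B16 CTRL and 31.6 CPM in CT-26 CTRL. Of 9 erythroid genes at level 7 were higher, including Alas2 at 1.54, while the major globin Hbb-bs had 0.67. All 8 neutrophil genes at level were higher, and the list median was 1.19. Summed neutrophil genes came to 445 CPM in B16 CTRL and 144 CPM in CT-26 CTRL. S100a9 had 5875 reads in B16 CTRL and 3427 in CT-26 CTRL, a log2 ratio of 1.66. The secondary granule genes of immature neutrophils, Ngp, Camp and Ltf, went the other way but were below the level limit. They had 0 reads in B16 CTRL and 273, 81 and 347 in CT-26 CTRL. In the CD4 and regulatory T-cell list 4 of 8 genes at level were higher and none lower. The higher ones included Zbtb7b, which sets the CD4 fate, at 3.50, and Cd4 at 1.99. Of 5 dendritic cell genes at level, Cd209a and Tcf4 were higher and Ccr9, a gut homing receptor that naive CD8 T cells also carry, was lower, and the 1 basophil gene at level, Hdc, was higher at 1.52. Foxp3, the factor of regulatory T cells, had 189 reads in B16 CTRL and 93 in CT-26 CTRL. Of the 11 melanocyte genes, Tyr and Tyrp1 had no read in either library, and Pmel, the one gene of the list at level, a melanosome protein, had 706 reads in B16 CTRL and 1795 in CT-26 CTRL. The epithelial list and the list of endothelial and stromal genes each had 1 gene at level, called in neither direction.

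**Figure D2:**
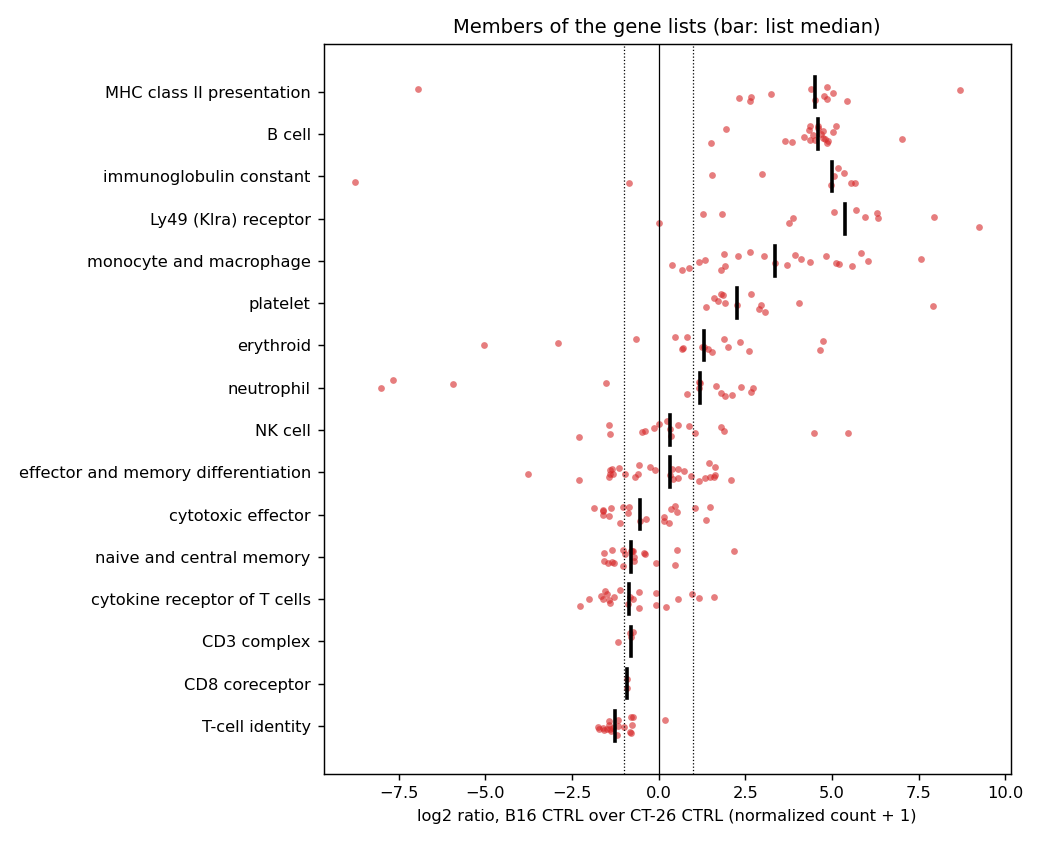
Log2 ratio, B16 CTRL over CT-26 CTRL, of each member of 16 gene lists with at least 10 reads in the 2 libraries together; black bars are list medians and dotted lines mark the 2-fold limit. MHC class II, B cell, immunoglobulin and Ly49 medians lie between 4.52 and 5.38, and the CD3, CD8 and T-cell identity medians lie between -1.26 and -0.81.

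The gene lists of T-cell states held 173 genes, of which 150 were at level. On the common scale 25 were higher and 50 lower in B16 CTRL, with a median log2 ratio of -0.70. Per CD3 complex read, where 35.1% of all genes at level were higher and 2.83% lower, 50 of these were higher and 8 lower, with a median of 0.20. The CD3 scale adds the same amount to each gene, and on it the median of all genes at level was 0.73, above the 0.20 of these lists together. For each state but the homing genes, list counts are given on both scales.

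Naive and central memory genes had a median log2 ratio of -0.79, with 8 lower and 1 higher of 20. Per CD3 read the median was 0.11, with 3 higher and none lower. Tcf7, the transcription factor of naive and stem-like memory T cells, had 29339 normalized counts in B16 CTRL and 80604 in CT-26 CTRL, a log2 ratio of -1.46 on the common scale and -0.56 per CD3 read. Ccr7 and Lef1, a lymph node homing receptor and a partner of Tcf7, had 0.12 and 0.16 per CD3 read. The member that was higher on both scales, Id3, is an inhibitor of E proteins that naive T cells and B cells express, with 2750 reads in B16 CTRL and 1128 in CT-26 CTRL. Ccr7 and Id3 are also expressed by B cells, whose summed marker level differed 13.9-fold; the part of B-cell RNA in these values was not tested.

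Effector and memory genes split, with 8 higher and 8 lower of 27 at level on the common scale and 14 higher and 2 lower per CD3 read. Those higher on the common scale included genes that myeloid cells also express, beside which the summed monocyte genes differed 6.26-fold. Crip1, a LIM domain protein, had 23094 reads in B16 CTRL and 10076 in CT-26 CTRL, and Anxa2, S100a6 and S100a4 had log2 ratios between 1.59 and 1.62. Those lower included T-cell transcription factors. Eomes, a T-box factor of memory and effector CD8 cells, had 691 reads in B16 CTRL and 6287 in CT-26 CTRL. Its log2 ratio was -2.30 on the common scale and -1.40 per CD3 read. Eomes is also on the NK cell list, and its log2 ratio in the residual pair was -1.74. Tbx21, which encodes T-bet, had -1.32 on the common scale and -0.42 per CD3 read. Runx3, needed for CD8 identity, had -1.34 on the common scale and -0.44 per CD3 read. Ly6c1, an antigen of memory CD8 cells, had 341 reads in B16 CTRL and 8605 in CT-26 CTRL. Its log2 ratio was -3.77, or -2.87 per CD3 read. Ly6c1 is also on a list of genes known to differ among mouse strains. Cd44, the antigen-experience marker, had 4618 reads in B16 CTRL and 4428 in CT-26 CTRL, a log2 ratio of 0.94, and myeloid and B cells carry it too.

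Among 18 cytotoxic effector genes at level, 3 were higher and 6 lower, and per CD3 read 8 were higher and none lower. Gzmb, the granzyme of armed effectors, had 4518 normalized counts in B16 CTRL and 3254 in CT-26 CTRL, a log2 ratio of 0.47 on the common scale and 1.38 per CD3 read. Gzma had 0.36 on the common scale and 1.26 per CD3 read, and Gzmk, a granzyme of memory cells, had -0.53 on the common scale and 0.37 per CD3 read. Prf1, the pore former perforin, had 2981 reads in B16 CTRL and 14715 in CT-26 CTRL, a log2 ratio of -1.42, or -0.52 per CD3 read. Ctsw, a protease of cytotoxic lymphocytes, had -1.59 on the common scale and -0.69 per CD3 read. Ifng had 208 reads in B16 CTRL and 827 in CT-26 CTRL, a log2 ratio of -1.11, or -0.20 per CD3 read. The genes higher on the common scale, Ccl3, Ctsc and Srgn, are expressed by myeloid cells as well as by cytotoxic lymphocytes.

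Inhibitory receptor genes gave 4 higher and 1 lower of 13 at level on the common scale. Per CD3 read 6 were higher and none lower, with a median of 0.55. Those higher were Cd200 at 4.28, Cd244 at 3.34, Btla at 3.13 and Havcr2 at 2.33. Btla and Cd200 are also B-cell genes, and Havcr2 and Cd244 also myeloid genes. The part of B-cell and myeloid RNA in these values was not tested. In the residual pair 2 genes of the list were higher, Btla at 1.98 and Havcr2 at 1.01, and 4 were lower. There Cd200 had 0.51 and Cd244 had -0.77, called in neither direction. Receptors often read as marks of chronic stimulation had few reads in both libraries. Pdcd1, which encodes PD-1, had 225 reads in B16 CTRL and 314 in CT-26 CTRL, or 0.453 reads per 100 CD3 reads in B16 CTRL and 0.183 in CT-26 CTRL. Lag3 had 51 reads in B16 CTRL and 120 in CT-26 CTRL, and Tigit had 111 in B16 CTRL and 264 in CT-26 CTRL. Tox, a factor of exhausted T cells, had 971 reads in B16 CTRL and 4449 in CT-26 CTRL. It was lower on the common scale, with a log2 ratio of -1.31, but was not called lower per CD3 read.

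Genes of early T-cell activation differed in both directions, with 4 higher and 5 lower of 20 at level on the common scale. Per CD3 read 8 were higher and 3 lower, with a median of 0.61. Tnfaip3, which encodes the NF-kappaB inhibitor A20, had 20777 normalized counts in B16 CTRL and 149466 in CT-26 CTRL, a log2 ratio of -2.85 (95% interval -2.87 to -2.82) and -1.94 per CD3 read. Jun, an AP-1 subunit, had 23885 normalized counts in B16 CTRL and 110812 in CT-26 CTRL, a log2 ratio of -2.21, or -1.31 per CD3 read. Junb and Fosb had -1.61 and -1.92. Fos and Dusp1, further immediate early genes, had -0.99 and -0.31, and Nr4a1 and Egr1 had 0.88 and 1.37. In the residual libraries Tnfaip3 had a log2 ratio of -0.39 and Jun one of -1.82. Irf4 and Irf8, factors of activated T cells and of B and myeloid cells, were higher at 4.62 and 3.73.

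Of cytokine receptor genes of T cells, 9 were lower and 1 higher of 20 at level, with a median log2 ratio of -0.86. Per CD3 read the median was 0.05, with 4 higher and 2 lower. Il6st, the shared signalling chain gp130, had 2535 reads in B16 CTRL and 22565 in CT-26 CTRL, a log2 ratio of -2.27, or -1.37 per CD3 read. Il18r1, a receptor chain for interleukin 18, had 628 reads in B16 CTRL and 4642 in CT-26 CTRL, -2.00 on the common scale and -1.10 per CD3 read. Il7r, the survival receptor of naive and memory cells, had -1.29 on the common scale and -0.38 per CD3 read. Among the homing genes, Itga6, an integrin of laminin binding, had 2435 reads in B16 CTRL and 20528 in CT-26 CTRL, a log2 ratio of -2.19, or -1.29 per CD3 read. Ccr6 and Cxcr5, which guide B cells as well as T-cell subsets, had 5.37 and 3.66. The 8 genes that were lower per CD3 read were Eomes, Ly6c1, Fosb, Jun, Tnfaip3, Itga6, Il6st and Il18r1.

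**Figure D3:**
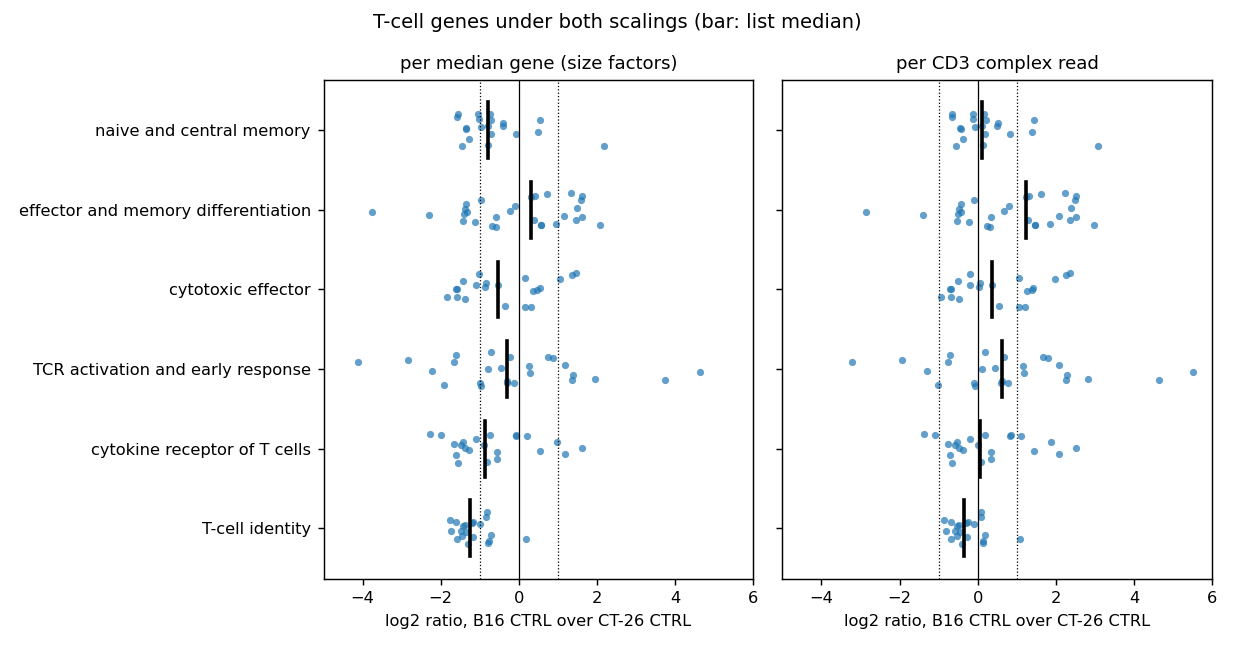
Log2 ratio, B16 CTRL over CT-26 CTRL, of members of 6 T-cell gene lists on the common scale (left) and per read of the CD3 complex (right), with list medians as bars. The medians of naive, cytotoxic and cytokine receptor genes lie at -0.79, -0.53 and -0.86 on the left and at 0.11, 0.37 and 0.05 on the right.

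Interferon-stimulated genes had a median log2 ratio of -0.11, near that of all genes, with 7 higher and 1 lower of 33 at level. Ly6e, which B cells also express, had 106011 reads in B16 CTRL and 12159 in CT-26 CTRL, a log2 ratio of 4.01. Irf7 and Ifit1, central genes of the response, had -0.98 and -0.33. Guanylate-binding proteins and immunity-related GTPases, taken as 1 list, are induced by interferon gamma and attack intracellular parasites. The list gave 6 lower and none higher of 16 at level, with a median log2 ratio of -0.85. The 6 were all guanylate-binding proteins. In the residual pair the list median was -1.02, with 8 lower and none higher, where 16.2% of all genes at level were lower. Gbp2b (chromosome 3, 142594847 to 142619179), also called Gbp1, had 9 reads in B16 CTRL and 5112 in CT-26 CTRL, a log2 ratio of -8.15 (95% interval -9.40 to -7.34). Gbp4 and Gbp10 had -2.05 and -2.39. Of 16 genes of class I and peptide loading, 3 were lower and none higher. The classical class I genes had small ratios, H2-K1 at 0.09 and H2-D1 at -0.25, and B2m at 0.54. Nlrc5, the class I coactivator, and Erap1, a peptide trimming enzyme, were lower, at -1.59 and -1.44.

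Nonclassical MHC class I genes of the H2-Q and H2-T regions, which vary in number and sequence among strains, were far apart in both directions. H2-Q7 had 39693 reads in B16 CTRL and 4311 in CT-26 CTRL, a log2 ratio of 4.09. H2-Q4, H2-Q1, H2-Q2 and H2-Q10 had log2 ratios of -3.83, -4.46, -5.51 and -4.34. H2-T3, which encodes the thymus leukaemia antigen, had 3 reads in B16 CTRL and 1351 in CT-26 CTRL, and is known to be expressed in a strain-dependent way. In the residual libraries H2-Q1, H2-Q2 and H2-T3 had -4.37, -5.53 and -7.08, whereas H2-Q10, a secreted class I molecule of liver, had 0.49. These genes are near copies of each other and of H2-K1 and H2-D1, so their single values are uncertain. The part of read placement on the C57BL/6J reference was not tested.

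Lists of general cell functions had medians between -0.22 and 0.48. Of the 23 nuclear genes of oxidative phosphorylation and the 10 mitochondrial genes at level, none was called in either direction, and both list medians were 0.15. Proliferation genes had 1 higher and none lower of 14 at level and a median of 0.48. Glycolysis genes had 2 higher and 3 lower of 16, and heat shock and stress genes had 1 higher and 1 lower of 14.

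Single genes outside these classes had gaps of similar size. Slc15a2, a peptide transporter, had 1213 reads in B16 CTRL and 0 in CT-26 CTRL, at least 746-fold higher against a floor of 3 reads per library. Trim12a, a relative of the antiviral factor Trim5, had 6161 reads in B16 CTRL and 14 in CT-26 CTRL, a log2 ratio of 9.53 (95% interval 8.92 to 10.54). Fut10, a fucosyltransferase, had 0 reads in B16 CTRL and 1333 in CT-26 CTRL, at least 241-fold lower. Osbpl6, of the oxysterol-binding protein family, had 1 read in B16 CTRL and 3569 in CT-26 CTRL, a log2 ratio of -10.12 (95% interval -16.22 to -8.44). Alpl, tissue-nonspecific alkaline phosphatase, had 3 reads in B16 CTRL and 4182 in CT-26 CTRL, a log2 ratio of -9.25 (95% interval -11.84 to -8.01). The Ly49 receptors bind class I on NK and some T cells in mice, and their gene number differs among strains. Summed over 12 genes, they had 4031 reads in B16 CTRL and 305 in CT-26 CTRL, with 5 genes at level, all higher. In the residual libraries the 12 genes summed to 170 CPM in B16 and 241 CPM in CT-26. There 4 were higher and 2 lower, with a median log2 ratio of 0.56. Klra8, known as Ly49H in C57BL/6 mice and missing from BALB/c mice, had 450 reads in B16 CTRL and 0 in CT-26 CTRL, at least 277-fold higher. Apobec3, a deaminase that restricts retroviruses with a more strongly expressed allele in C57BL/6, had 20005 reads in B16 CTRL and 3984 in CT-26 CTRL, a log2 ratio of 3.21. Ly6a, the Sca-1 antigen, had a log2 ratio of 2.49.

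Over both pairs of libraries, 8299 genes were at level. Of these, 148 were higher in B16 in both the CTRL and the residual pair (1.78%), and 391 were lower in both (4.71%). Another 86 were higher in B16 CTRL and lower in the B16 residual library (1.04%), and 21 were the reverse (0.253%). Of the 1068 genes higher in B16 CTRL, 587 (55.0%) had a residual ratio of the same sign, and of the 1281 lower, 1079 (84.2%) did. These counts set no level limit in the residual pair. That pair leaned low, with 6.33% of 8895 genes at level higher and 16.2% lower. The share of each sign over all genes is not given, so these shares alone do not measure repetition. The genes that repeated with large ratios in both pairs included Trim12a, Slc15a2, Vill, Klra8 and Rpl29 on the high side, and Gbp2b, H2-Q1, H2-Q2, Scg5, Tpm3-rs7 and Atp9a on the low side. Vill, a villin-like actin-binding protein, had 646 reads in B16 CTRL and 1 in CT-26 CTRL, with log2 ratios of 8.98 (95% interval 7.74 to 15.52) in the CTRL pair and 10.50 in the residual pair. The genes with a large CTRL ratio and a residual ratio near 0 included Fcgr4, Cd300e, Rnase6 and Fcrl5 on the high side, and Tnfaip3, H2-Q10 and Axin2 on the low side. Cd300e, an activating receptor of monocytes, had 3039 reads in B16 CTRL and 15 in CT-26 CTRL and a residual log2 ratio of 0.39.

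**Figure D4:**
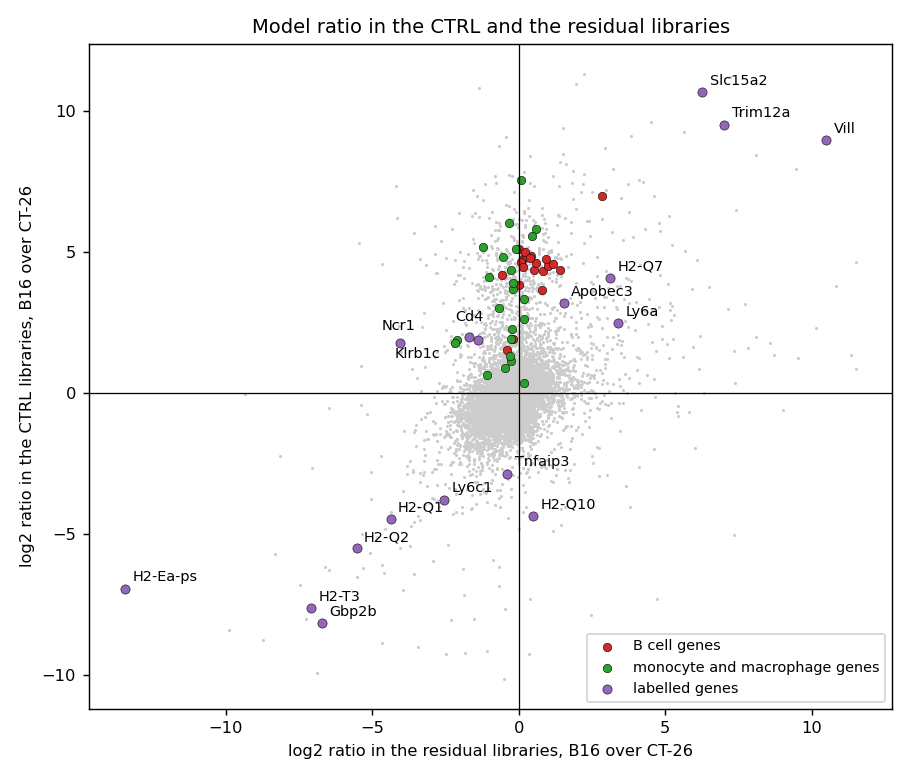
Log2 ratio of B16 over CT-26 in the CTRL pair (vertical) and in the residual pair (horizontal), 1 point a gene. B cell and monocyte genes lie above 0 in the CTRL pair, with median residual ratios of 0.37 and -0.27. In the residual pair 3 B cell genes were called higher and 5 monocyte genes lower. Trim12a, Slc15a2, H2-Q7 and Ly6a are high in both pairs and Gbp2b, H2-T3, H2-Q2 and H2-Ea-ps are low in both.

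A fit with population and model as terms, which treats CTRL and residual of a model as its 2 libraries, tested 18749 genes by edgeR's quasi-likelihood test with 1 residual degree of freedom. At an adjusted p under 0.05 it called 0 genes higher (0.0%) and 0 lower (0.0%) in B16, and the lowest adjusted p was 0.358. At an unadjusted p under 0.05 there were 726 higher and 846 lower. DESeq2 on the same libraries called 422 higher and 219 lower of 40101 genes. H2-Q2, H2-Q1, Tpm3-rs7, Eno1b, Apol11b, Slc22a15 and Tspan33 shared the lowest adjusted p of 0.358 in edgeR's quasi-likelihood test. The p-values measure how far CTRL and residual disagree on a model difference, not the spread between animals.

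Receptor segments were read last, since selection by a multimer could leave few receptors. TCR alpha variable segments took 3167 reads in B16 CTRL and 19127 in CT-26 CTRL. The leading segment was Trav12-2 in B16 CTRL, with 6.60% of these reads (Wilson 95% interval 5.79 to 7.52), against 0.335% in CT-26 CTRL. In CT-26 CTRL the leading segment was Trav3-3, which took 3.66% in B16 CTRL and 8.34% in CT-26 CTRL. The 5 leading segments together took 23.97% of alpha reads in B16 CTRL and 30.2% in CT-26 CTRL. The effective number of alpha segments, the inverse of the summed squared shares, was 38.1 in B16 CTRL and 30.5 in CT-26 CTRL. No alpha segment thus took more than 8.34% of reads in either library.

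Beta chains were likewise spread. Trbv16 led in B16 CTRL, with 11.6% of 11513 reads, against 3.63% in CT-26 CTRL. Trbv13-2 took 7.11% in B16 CTRL and led in CT-26 CTRL, with 12.0% of 35783 reads. Trbv12-1 took 8.99% in B16 CTRL and 0.841% in CT-26 CTRL. The 5 leading segments took 42.4% of beta reads in B16 CTRL and 51.4% in CT-26 CTRL, with effective numbers of 15.3 in B16 CTRL and 13.1 in CT-26 CTRL. Immunoglobulin heavy chain segments took 21711 reads in B16 CTRL, led by Ighv1-81 with 11.8%, and 1668 reads in CT-26 CTRL, led by Ighv5-6 with 30.8% (Wilson 95% interval 28.6 to 33.1). Ighv1-64 took 8.68% in B16 CTRL and had 0 reads in CT-26 CTRL. Segment genes differ among strains and have near-identical copies, and the part of read placement on the C57BL/6J reference was not tested.

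**Figure D5:**
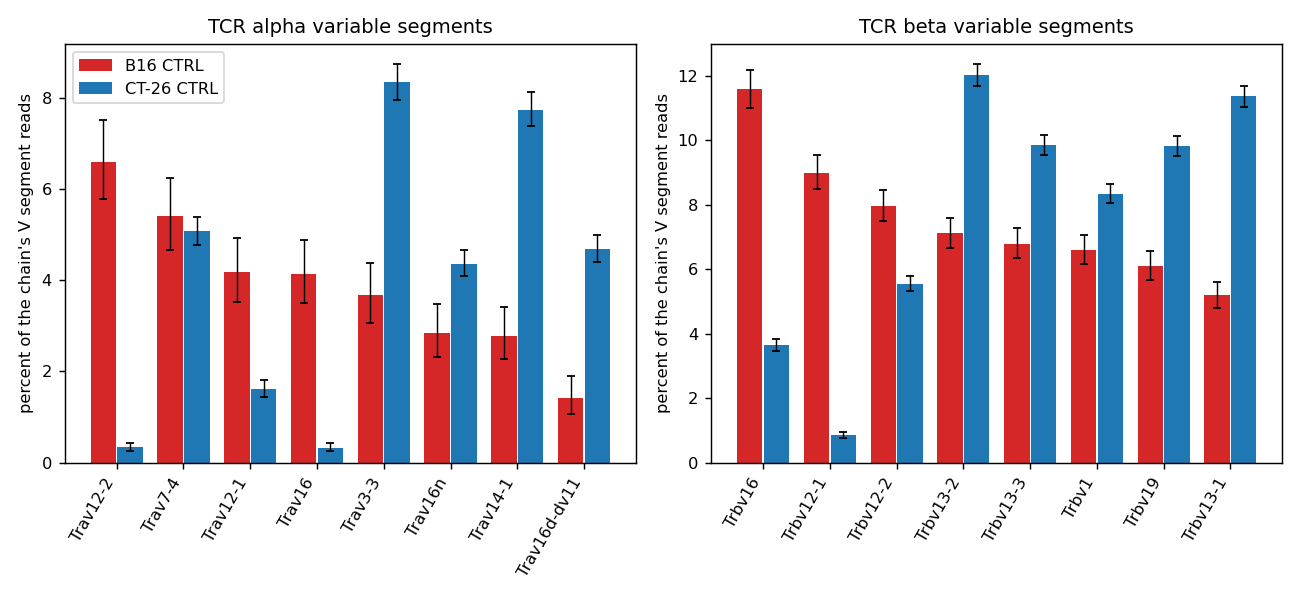
Percent of TCR alpha (left) and beta (right) variable segment reads taken by the leading segments in B16 CTRL (red) and CT-26 CTRL (blue), with Wilson 95% intervals that cover counting error only. Trav12-2 and Trbv16 lead in B16 CTRL with 6.60% and 11.6%, and Trav3-3 and Trbv13-2 lead in CT-26 CTRL with 8.34% and 12.0%.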

How the data were processed

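Libraries came from the Takara SMART-Seq v4 kit for very low RNA input, per the labels' protocols. The authors deposited a table per model with raw read counts per gene, beside normalized values, folds and p-values that were not used here. The submitters' processing notes list mm10 as the build and the tools DESeq2, HTSeq 0.11.2 and STAR 2.7.3a, with no role. The strand setting of the counting is not stated there, so an antisense or overlapping gene can share reads with its partner.

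Counts of both models were joined by gene identifier and rescaled together with median-of-ratios size factors over the CTRL libraries, and separately over the residual libraries. Intervals of ratios are exact binomial intervals conditional on the summed reads. TPM used summed exon length from GENCODE M21, which covered 99.8% of identifiers. PCR reads without molecular identifiers are not independent molecules, so intervals and floors cover counting error only. The model fit used edgeR 4.0.16 in R 4.3.3 on TMM-scaled libraries, after filterByExpr, with adjustment by Benjamini-Hochberg; DESeq2 1.42.0 was an alternative. The edgeR fit and the limits of size and level were tested on simulated data. DESeq2 was not.

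The members and the 38 gene lists (653 entries, of which 15 matched no gene) were chosen with earlier results of these data known. List medians cover members with at least 10 reads in the 2 libraries together. Named genes were the 10 largest ratios each way, up to 6 per list, a set of fixed genes, the 10 largest each way among genes past the limits in both pairs, the 10 with a residual ratio under 0.5 in size, up to 5 segments per chain and the 10 lowest adjusted p each way. Predicted genes, pseudogenes and segments were left out of the ranked rules. Further list members were named after their values were seen. Some genes that the rule names are not reported here. H2-Q, H2-T, Klra, globin, Eno1b, Tpm3-rs7, ribosomal and receptor segment genes have near-identical copies, so single values are uncertain. Results were recomputed under other scalings, other limits of size and level, a pseudocount of 0.1 or 5, with genes left out, and under other CD3 scales.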

Additional observations from a re-analysis of the deposited data

Results flagged for a closer look

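Of 8299 genes at level in both pairs, 86 (1.04%) passed the limits upward in the CTRL pair and downward in the residual pair, B16 over CT-26, and 10 of the 86 were among the named genes. The difference between the pairs was not tested, and each pair is 1 library against 1. Among genes of myeloid cells, Aif1 had a log2 ratio of 5.20 in the CTRL pair and -1.24 in the residual pair, and Cd209a had 4.14 in the CTRL pair and -1.21 in the residual pair. Irf8 had 3.73 in the CTRL pair and -1.31 in the residual pair, and Atf3, a stress-response factor, had 3.34 in the CTRL pair and -1.16 in the residual pair. The chemokine gene Ccl3 had 1.47 in the CTRL pair and -1.17 in the residual pair. The chemokine receptor genes Ccr1 and Cxcr2 had 1.68 and 1.16 in the CTRL pair and -1.10 and -1.02 in the residual pair. Among genes of lymphocytes, Cd4 had 1.99 in the CTRL pair and -1.69 in the residual pair. Klrb1c had 1.89 in the CTRL pair and -1.40 in the residual pair, and Ncr1 had 1.80 in the CTRL pair and -4.06 in the residual pair. The NK cell list, which holds Ncr1 and Klrb1c, had a median log2 ratio of 0.34 in the CTRL pair and -1.74 in the residual pair.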

How the results depend on the processing

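The counts of genes past the limits moved with the limits. With no limit on level there were 8436 genes higher and 6450 lower in B16 CTRL, with 56.7% of called genes higher. At 1 CPM there were 2737 higher and 2344 lower, and at 50 CPM 439 higher and 706 lower. At a log2 ratio of at least 2 there were 618 higher and 235 lower, with 72.5% higher, against 45.5% at the limit of 1. Scaling to total reads without haemoglobin, immunoglobulin and mitochondrial genes gave 1205 higher and 972 lower, and moved the median of all genes at level to -0.02. Under other scalings and pseudocounts, all 228 list medians kept their label. Lists with a main median of at least 1 in size kept its sign and stayed past 1. The other lists stayed under 1 in size, and their sign was not checked. Of single genes, 2555 values kept their call, 151 of 120 genes fell below a limit, 21 of 12 genes rose past one, and none reversed. In the fit over both populations, which called 0 genes with either set of edgeR factors, DESeq2 called 422 higher and 219 lower, and edgeR without a filter on low counts called 110 higher and 93 lower; the cause was not tested. Without pseudogene segments the share of Ighv5-6 in CT-26 CTRL was 33.1%. No paired analysis was possible because the labels give no replicate numbers; the fit over both populations, with population as a term, is the one fit that sets the CTRL and residual libraries of a model together. Each group holds 1 library, so none could be left out. A count of 0 allows up to 0.0807 CPM in B16 CTRL and 0.0401 CPM in CT-26 CTRL.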
